A study of Mus musculus with 8 samples.

Results

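The ErbB receptors, their EGF-like ligands and the feedback inhibitor *Errfi1* were followed in tissue dissected around the lateral ventricle from mice with and without *Lrig1*. The set was given as a list of 10 genes among the 54307 gene identifiers of the count table: the receptors *Egfr*, *Erbb2*, *Erbb3* and *Erbb4*, the ligands *Egf*, *Tgfa*, *Hbegf*, *Btc* and *Nrg1*, and *Errfi1*. All 10 were found in the table by symbol and all 10 passed the filter on low counts. The KO mice were homozygous for a CreERT2 cassette knocked into the first exon of *Lrig1*, a constitutive loss that also covers development, and the WT mice were littermates with the intact allele, both on the 129-Elite strain. The KO group held 2 females and 2 males, the WT group 3 females and 1 male, all 8 weeks old and with no treatment named, and 1 library of polyA RNA was made from 1 hemisphere of each of the 8 mice. The labels name the tissue as V-SVZ, the ventricular-subventricular zone.

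ErbB proteins are receptor tyrosine kinases that pair on the cell surface when a ligand with an EGF-like domain binds. EGFR and ERBB4 bind ligand and carry an active kinase, ERBB2 has no known ligand of its own and serves as a partner, and ERBB3 binds neuregulins but has a weak kinase and signals through its partner. In the adult V-SVZ the receptors differ in the cells that carry them: dividing progenitors are rich in EGFR, migrating neuroblasts and interneurons in ERBB4, and the oligodendrocyte lineage in ERBB3. LRIG1 is a transmembrane protein that is known to promote the degradation of ErbB receptors, so the comparison asks whether RNA of the receptors, their ligands and their regulators differs when LRIG1 is lost. RNA levels say nothing of receptor protein or phosphorylation.

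Between 47887437 and 74482334 estimated counts were assigned to genes per mouse. *Lrig1*, the targeted gene, had 45.6, 13.5, 41.4 and 34.3 CPM (estimated counts scaled to the same library size for each mouse, TMM-normalized) in WT replicates 1 to 4 and 1.41, 4.15, 1.17 and 2.96 in KO replicates 1 to 4, with every KO mouse below every WT mouse. The dissections held different neurons. Summed over 8 markers of cortical excitatory neurons, led by *Slc17a7* and *Tbr1*, WT replicates 1 to 4 had 366, 1834, 98.8 and 263 CPM and KO replicates 1 to 4 had 489, 87.3, 886 and 62.1 CPM. Over 10 markers of striatal medium spiny neurons, led by *Ppp1r1b* and *Penk*, the range was 2883 to 8967 in WT and 4487 to 7269 in KO. Markers of the V-SVZ were present in all mice: 9 neuroblast genes summed to between 149 and 228 CPM, 7 ependymal genes to between 31.2 and 71.1, and 7 genes of cycling progenitors to between 41.6 and 62.1. No marker gene of these lists was at 0 in every mouse.

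Per length, *Tgfa* was the most abundant of the 10 genes. Levels of different genes were compared as TPM (a share of all transcripts that divides reads by transcript length), summed over the transcripts of a gene. *Tgfa* had a mean of 37.5 TPM over the 8 mice (range 25.6 to 45.5), above every value of every other gene of the set. *Errfi1* followed with 12.5 TPM (10.5 to 15.1), then *Hbegf* with 9.69 (7.89 to 11.0) and *Erbb4* with 9.16 (5.59 to 11.1). The ranges of *Errfi1* and *Hbegf* overlapped, although *Errfi1* was the higher in 7 of 8 mice, and *Hbegf* was above *Erbb4* in 4 of 8 mice. *Egfr* (3.22 TPM, 2.87 to 4.07), *Erbb3* (3.18, 2.49 to 4.24) and *Nrg1* (3.09, 2.23 to 3.67) could not be ordered by their spread. The TPM of *Nrg1* covers only its transcripts found in the annotation used, with 88.1% of its counts. *Erbb2* lay below these at 1.16 TPM (0.913 to 1.61). *Egf* (0.161 TPM) and *Btc* (0.149 TPM) were lowest in all 8 mice and overlapped each other. Among the receptors *Erbb4* was therefore highest and *Erbb2* lowest in every mouse.

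**Figure D1:**
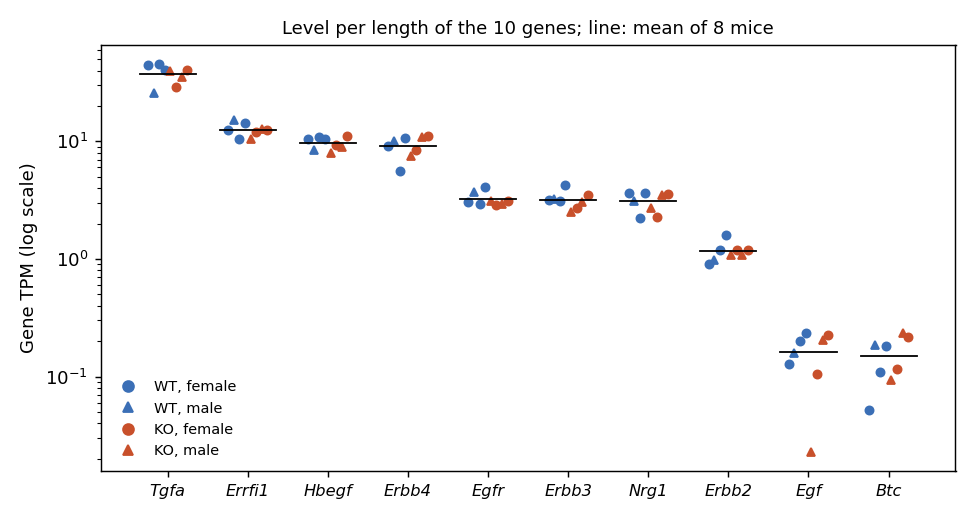
Gene TPM on a log axis for the 10 genes, ordered by mean, with 1 point per mouse (circles female, triangles male; blue WT, red KO) and a line at the mean of 8 mice. *Tgfa* stands above the other genes at 25.6 to 45.5 TPM, and *Egf* and *Btc* reach at most 0.236 TPM.

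None of the 10 genes passed the threshold between KO and WT. In the quasi-likelihood test of edgeR, with p-values adjusted by Benjamini-Hochberg over 17669 genes, 0 of 10 had an adjusted p under 0.1, where 0.00566% of all genes tested passed, and 0 of 10 had an unadjusted p under 0.05, where 1.88% of all genes did. DESeq2 also called 0 of 10, beside 12 of the 30085 genes it fitted. With sex as a covariate DESeq2 called 0 of 10, beside 201 of 30085. With sex as a covariate in edgeR 0 of 10 had an adjusted p under 0.1, beside 0.0113% of all genes, and 0 of 10 an unadjusted p under 0.05, beside 6.95%. The groups overlapped for all 10 genes, while for 1.53% of all genes tested they did not overlap, with KO below WT for 0.877% and above for 0.657%. In 7 of the 10 genes the log2 fold change was below 0, with a median of -0.081 over the 10, and 50.3% of all genes tested were below 0, with a median of -0.00094. The adjusted p in edgeR was 0.9998 for each of the 10 genes, so the 95% intervals of the log2 fold change (KO minus WT) are given with the values. *Lrig1* itself did not pass in edgeR without covariates (log2 fold change -3.80, adjusted p = 0.286). It passed in edgeR with sex as a covariate (adjusted p = 1.8e-04) and in DESeq2 (adjusted p = 4.5e-08). A gene not called in edgeR without covariates can therefore still differ between the groups. Less RNA per cell and fewer cells of a type cannot be told apart in bulk tissue.

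**Figure D2:**
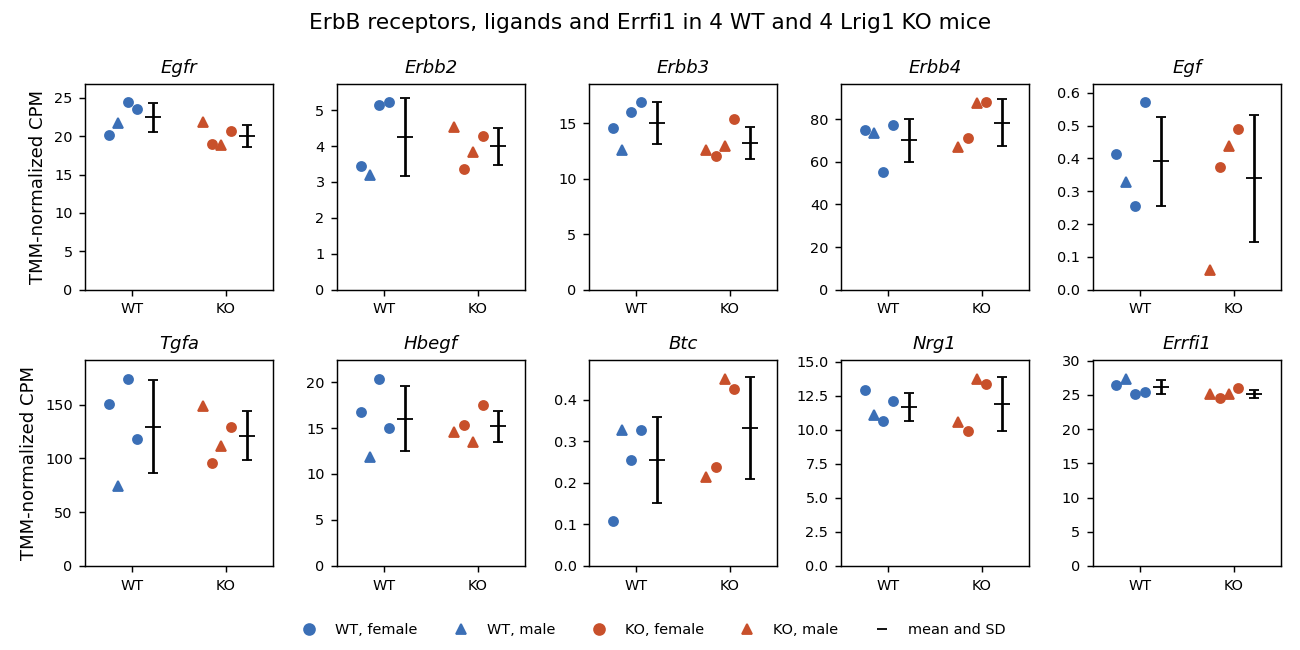
TMM-normalized CPM of each of the 10 genes in 4 WT and 4 KO mice on axes that start at 0 (circles female, triangles male), with the mean and SD beside each group. The groups overlap in every panel, *Errfi1* has the narrowest spread and *Tgfa* ranges from 74.2 to 174 CPM.

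*Egfr* (ENSMUSG00000020122.17) had 20.1, 21.8, 24.4 and 23.5 CPM in WT replicates 1 to 4, or 22.5 ± 1.91 (SD, n = 4). In KO replicates 1 to 4 it had 21.8, 18.9, 18.9 and 20.7 CPM, or 20.1 ± 1.43 (SD, n = 4). KO replicates 2 and 3 lay below all WT mice, and the other KO mice lay inside the WT range. The log2 fold change was -0.16 (standard error 0.089, 95% interval -0.36 to 0.038, edgeR), that is 0.893 of the WT level, and by unadjusted p *Egfr* ranked at 908 of the genes tested, the best place of the set. Without WT replicate 1, whose *Egfr* was the lowest of the WT mice, the log2 fold change was -0.21 (edgeR, unadjusted p = 0.04955, adjusted p = 1.0), and without WT replicate 3, the highest, it was -0.12 (unadjusted p = 0.245, adjusted p = 0.9995).

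*Erbb3* (ENSMUSG00000018166.9), the kinase-weak neuregulin receptor, had 14.6, 12.6, 16.0 and 16.9 CPM in the WT mice. The KO mice had 12.6, 12.1, 12.9 and 15.3 CPM, so that KO replicate 2 was below all WT mice and the others were inside the WT range. The log2 fold change was -0.18 (standard error 0.12, 95% interval -0.45 to 0.091, edgeR). It was -0.26 without WT replicate 2, the mouse with the most cortical RNA (edgeR, unadjusted p = 0.04818, adjusted p = 0.9888), and -0.12 without WT replicate 4, the highest in *Erbb3* (unadjusted p = 0.3693, adjusted p = 1.0). Across alternatives, *Egfr* and *Erbb3* remained lower in KO in all 17 alternative fits of each, with no adjusted p under 0.8103.

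*Erbb2* (ENSMUSG00000062312.6), the partner receptor, had 3.44, 3.19, 5.14 and 5.22 CPM in WT and 4.53, 3.35, 3.83 and 4.27 in KO. The WT mice fell into a low pair and a high pair with all KO mice between their extremes, and the log2 fold change was -0.086 (standard error 0.20, 95% interval -0.53 to 0.36, edgeR). *Erbb4* (ENSMUSG00000062209.16) was the only receptor with a positive value. It had 74.8, 73.4, 55.3 and 77.4 CPM in WT and 67.2, 71.2, 87.6 and 87.9 in KO, and the log2 fold change was 0.16 (standard error 0.13, 95% interval -0.14 to 0.46, edgeR). KO replicates 3 and 4 were above all WT mice, and the other KO mice were not. WT replicate 3, the lowest in *Erbb4*, moved this value, and without it the log2 fold change was 0.062.

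The ligands showed no split by genotype, and their spread over the 8 mice differed, with a coefficient of variation of 25.9% for *Tgfa*, 16.7% for *Hbegf* and 12.4% for *Nrg1*. *Tgfa* (ENSMUSG00000029999.15), which binds EGFR, had 151, 74.2, 174 and 118 CPM in WT and 149, 95.5, 111 and 129 in KO. The lowest and the highest of the 8 mice were both WT, and the log2 fold change was -0.092 (standard error 0.25, 95% interval -0.66 to 0.47, edgeR). Its sign depended on single mice, at -0.29 without WT replicate 2 and 0.086 without WT replicate 3. *Hbegf* (ENSMUSG00000024486.7), heparin-binding EGF-like growth factor, binds EGFR and ERBB4 and had 16.7, 11.9, 20.4 and 15.0 CPM in WT and 14.5, 15.3, 13.5 and 17.5 in KO. All KO mice were inside the WT range, and the log2 fold change was -0.075 (standard error 0.16, 95% interval -0.44 to 0.29, edgeR); it was 0.063 without WT replicate 3.

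*Nrg1* (ENSMUSG00000062991.10), neuregulin 1, the ligand of ERBB3 and ERBB4, had 12.9, 11.1, 10.6 and 12.1 CPM in WT and 10.5, 9.87, 13.7 and 13.4 in KO. The KO mice lay on both sides of the WT range, and the log2 fold change was 0.025 (standard error 0.13, 95% interval -0.28 to 0.33, edgeR). *Egf* (ENSMUSG00000028017.8) and *Btc* (ENSMUSG00000082361.7, betacellulin) were at the low end of what these libraries resolve. *Egf* had 23, 20, 12 and 28 estimated counts in WT and 3, 22, 33 and 31 in KO, and *Btc* had 6, 20, 12 and 16 in WT and 11, 14, 34 and 27 in KO. Their intervals on the log2 scale were wide, from -1.39 to 1.01 for *Egf* and from -0.56 to 1.35 for *Btc*. Neither the direction nor the size of a difference was resolved in these mice. Part of *Egf* overlaps 2 antisense genes in the Gencode M21 annotation, 6330410L21Rik and Gm42697, whose mean levels were 0.117 and 0.005 CPM, and the kit is not stated to keep strand, so some of the few *Egf* reads are uncertain.

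*Errfi1* (ENSMUSG00000028967.11), also called MIG6, binds the kinase domain of ErbB receptors and is itself induced by ErbB signalling. It had 26.5, 27.4, 25.2 and 25.4 CPM in WT and 25.1, 24.6, 25.1 and 26.0 in KO. It was the steadiest gene of the set, with a coefficient of variation of 3.59% over the 8 mice, against 9.51% for *Egfr* and 25.9% for *Tgfa*. The log2 fold change was -0.052 (standard error 0.063, 95% interval -0.19 to 0.091, edgeR), the narrowest interval of the 10.

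**Figure D3:**
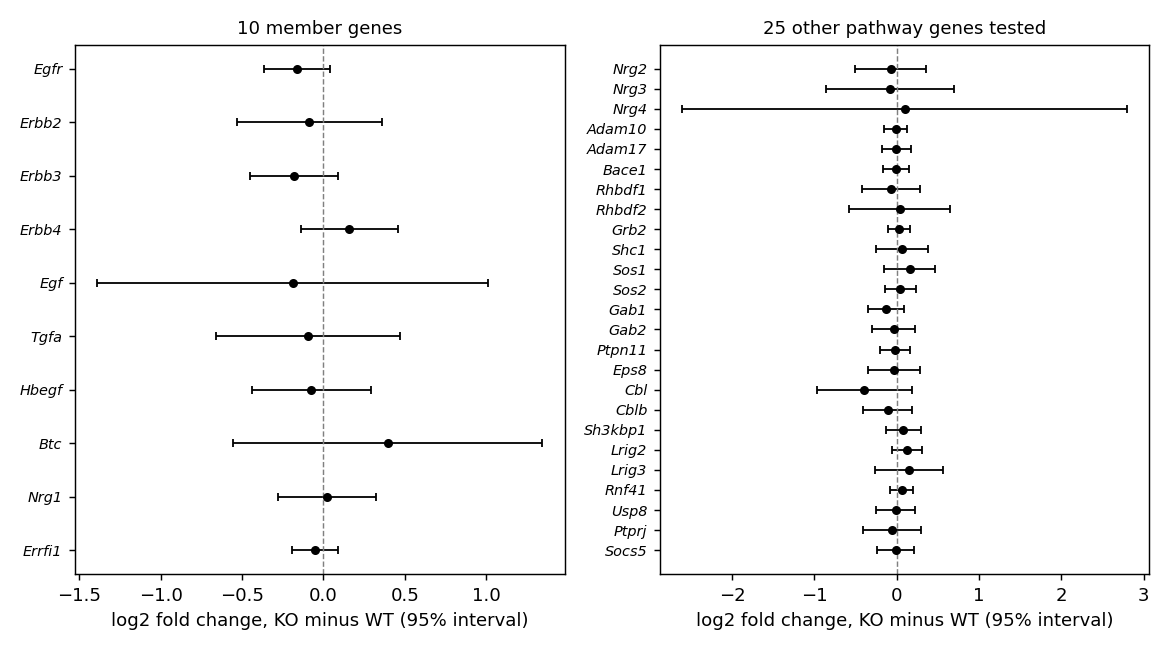
Log2 fold change of KO minus WT with its 95% interval from edgeR for the 10 genes (left) and for 25 other genes of the pathway (right), with a dashed line at 0 and separate axes. Every interval spans 0, and those of *Egf*, *Btc* and *Nrg4*, all with few counts, are the widest in their panels.

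Beyond the 10 genes, 28 further genes of ErbB signalling were listed by role: 6 ligands, 5 genes of ligand shedding and processing, 8 adaptors and 9 genes of receptor turnover and inhibition. Of these 25 were tested in edgeR. There 0 passed the adjusted threshold, beside 0.00566% of all genes tested, and 0 had an unadjusted p under 0.05, beside 1.88%. DESeq2, which fitted all 28, called 0 of them, beside 12 of 30085 genes. The median log2 fold change of the 25 was -0.013, with 15 below 0 and 10 above. Over all genes tested 50.3% were below 0, with a median of -0.00094. The ligands *Areg*, *Ereg* and *Epgn* failed the filter, with at most 7, 2 and 16 counts in any mouse. *Nrg2*, a neuregulin, had a log2 fold change of -0.073 (95% interval -0.50 to 0.35), and *Rhbdf1*, an inactive rhomboid that acts in the trafficking of the sheddase ADAM17, had -0.071 (-0.42 to 0.28). The smallest p of the adaptors was that of *Gab1*, a docking protein below EGFR, at -0.13 (-0.34 to 0.083). Of the turnover genes it was that of *Lrig2*, a paralog of *Lrig1*, at 0.12 (-0.056 to 0.31). *Cbl*, the ubiquitin ligase of EGFR, had the value farthest from 0 of the list, -0.39 (-0.96 to 0.18), and was singled out after its values were seen. It had 34.8, 44.4, 49.1 and 77.7 CPM in WT replicates 1 to 4 and from 30.6 to 52.5 in KO, so that WT replicate 4 stood above all other mice and the remaining WT mice lay within the KO range.

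*Erbb4* and *Egfr* are made in several forms, and the transcript estimates give the share of each form in these mice. *Erbb4* has alternative juxtamembrane exons, JM-a, which holds the site cut by ADAM17, and JM-b, which lacks it, and an exon of the cytoplasmic tail, CYT-1, which binds PI3-kinase and WW-domain proteins and is absent from CYT-2 forms. *Egfr* has a short form whose last exon reads past the splice site, so that it ends before the transmembrane part. These sequences, which tell the forms apart, are from the Gencode M21 transcripts (GRCm38), 5′ to 3′ on the transcript's strand. The capitals mark the codons of the binding motifs in CYT-1 and the coding bases of the short *Egfr* form past the splice site.
Erbb4 JM-a exon, 75 bases, chr1:68290243-68290317, minus strand: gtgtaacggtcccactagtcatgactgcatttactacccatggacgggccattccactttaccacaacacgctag
Erbb4 JM-b exon, 45 bases, chr1:68290439-68290483, minus strand: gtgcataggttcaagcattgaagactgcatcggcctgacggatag
Erbb4 CYT-1 exon, 48 bases, chr1:68043908-68043955, minus strand: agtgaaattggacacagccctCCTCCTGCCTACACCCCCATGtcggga
Egfr receptor exon 16, 45 bases, chr11:16887141-16887185, plus strand: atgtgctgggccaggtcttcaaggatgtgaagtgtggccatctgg
Egfr short form coding end, 88 bases, chr11:16887141-16887228, plus strand: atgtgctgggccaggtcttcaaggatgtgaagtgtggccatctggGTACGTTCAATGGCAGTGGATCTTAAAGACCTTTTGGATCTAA

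In the transcript estimates *Erbb4* was mainly of the JM-a CYT-2 form. Erbb4-202, which has the JM-a exon and lacks the CYT-1 exon, held 70.2% ± 4.99 (SD, n = 4) of *Erbb4* TPM in WT and 65.7% ± 3.88 (SD, n = 4) in KO. Erbb4-201, with both the JM-a and the CYT-1 exon, held 18.6% ± 5.14 in WT and 22.1% ± 6.22 in KO (SD, n = 4 each). By mouse the share of the CYT-1 form was 22.9%, 20.2%, 20.3% and 11.2% in WT and 16.5%, 25.1%, 29.4% and 17.3% in KO, and the groups overlapped. Erbb4-205, the only form with JM-b, is a fragment in the annotation, so its share of TPM (11.7% over the 8 mice) exceeds its share of *Erbb4* counts (2.10%). It has 2196 bases, against 11782 for Erbb4-201 and 12037 for Erbb4-202. Reads of a JM-b transcript from outside this fragment would be assigned to the JM-a forms, so these estimates do not settle the share of JM-a.

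The receptor form Egfr-201 held 82.8% ± 5.49 (SD, n = 4) of *Egfr* TPM in WT and 79.0% ± 3.94 in KO (SD, n = 4). The short form Egfr-202 held 14.3%, 12.5%, 9.81% and 22.2% in WT and 26.6%, 20.7%, 19.0% and 17.6% in KO. Every KO mouse was above 3 of the 4 WT mice, and WT replicate 4 lay inside the KO range. The difference was 6.31 percentage points (two-sided exact permutation p = 0.114, adjusted p = 0.667 over 7 transcripts, Benjamini-Hochberg). The short form has 2943 bases and the receptor form 10208, so that its share of *Egfr* counts was lower, at 5.60%, or from 32.3 to 98.5 estimated counts per mouse.

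*Nrg1* was split mainly between Nrg1-203, with 13 exons in M21, and Nrg1-201, with 9. The protein domains of these 2 transcripts were not examined. Nrg1-203 held 60.1% ± 5.25 in WT and 64.3% ± 11.1 in KO, and Nrg1-201 held 24.4% ± 4.41 and 23.3% ± 7.44 (SD, n = 4 each). These are shares of the 18 transcripts matched by identifier, which held 88.1% of the *Nrg1* counts. The lengths of some of them, Nrg1-203 and Nrg1-201 included, differed between the annotation at hand and the files. Of the 7 transcript shares tested over *Egfr*, *Erbb4* and *Nrg1*, 0 passed and 0 had an unadjusted p under 0.05 (exact permutation, smallest p possible 0.0286). The other genes with at least 1 TPM each had 1 transcript with over 90% of the gene, from 92.3% for Errfi1-201 to 99.9% for Tgfa-201, and *Erbb3* was listed with 1 transcript only.

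**Figure D4:**
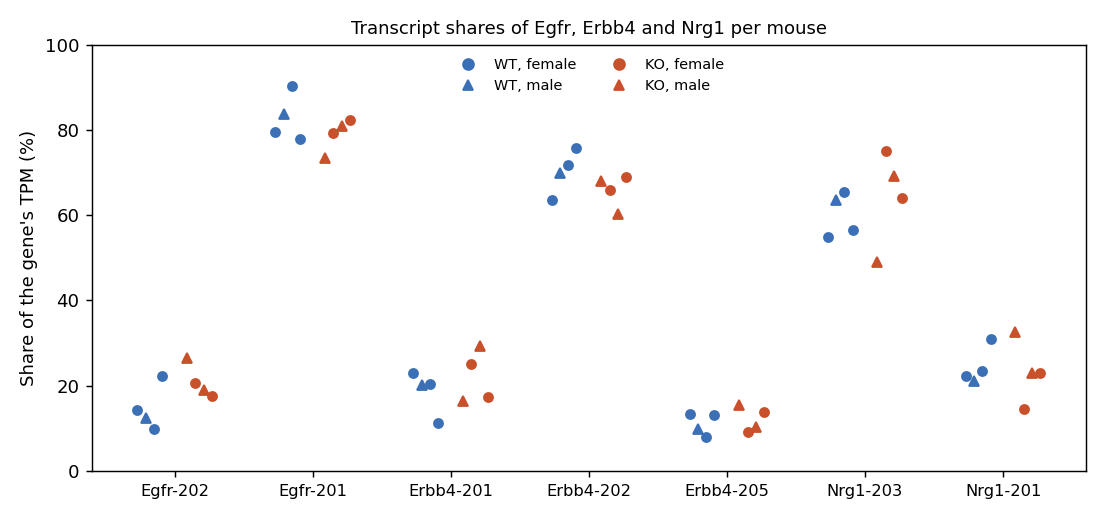
Share of a gene's TPM held by each of 7 transcripts of *Egfr*, *Erbb4* and *Nrg1*, in percent, with 1 point per mouse (circles female, triangles male; blue WT, red KO). WT and KO points overlap for every transcript, and for Egfr-202 3 of 4 WT points lie below all KO points.

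*Egfr* RNA followed the genes of cycling progenitors across the mice. The list of 7 genes, led by *Top2a* and *Mcm5*, had a mean log2 CPM between 2.34 and 2.91, and over the 8 mice Pearson's r with log2 CPM of *Egfr* was 0.888 (exact permutation p = 0.00454, adjusted p = 0.0408 over 9 pairs, Benjamini-Hochberg). Spearman's rho was 0.881 (exact permutation p = 0.00724, adjusted p = 0.0652). The lists and pairs were chosen with earlier results of these data known, which these p-values do not take into account. Without the 2 mice farthest from the median of the list, WT replicate 1 and KO replicate 3, r was 0.863. Centred within genotype it was 0.951. With 1 mouse left out r stayed between 0.849 and 0.928, and the adjusted p of r exceeded 0.1 without WT replicate 2 (0.154), KO replicate 2 (0.129), KO replicate 3 (0.17) or KO replicate 4 (0.102). The 5 females and the 3 males were too few for a correlation within a sex to be reported. All 7 genes of the list were lower in KO by log2 fold change, none with an unadjusted p under 0.05 in edgeR or an adjusted p under 0.1. Among the 14 marker lists r with *Egfr* was next highest for microglia (0.743) and vessels (0.605), values chosen after they were seen and not tested, so the relation is not shown to be particular to progenitor genes. *Egfr* was lower in the same direction, and the part of these cells in its fold change was not tested.

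In the other 8 pairs no relation passed. *Egfr* with 10 astrocyte markers gave r = 0.446 (rho = 0.262), *Erbb3* with 10 oligodendrocyte markers r = 0.288 (rho = 0.119), and *Erbb4* with 7 interneuron markers r = 0.363 (rho = 0.143) and with 9 neuroblast markers r = -0.349 (rho = -0.333). Their adjusted exact permutation p was 0.806 for r and 0.793 for rho in each. Without the 2 farthest mice these r were 0.39, 0.144, -0.0226 and -0.222. *Nrg1* with cholinergic and with cortical markers, and *Hbegf* and *Errfi1* with immediate early genes, gave r from 0.0935 to 0.295 (rho from 0.143 to 0.333, adjusted permutation p from 0.793 to 0.821). Without WT replicate 2 and KO replicate 4, the mice farthest from the median of both lists, the r of *Nrg1* moved from 0.0935 to 0.78 with cortical markers and from 0.219 to -0.121 with cholinergic markers.

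The wide range of *Tgfa* ran beside that of medium spiny neuron markers, a pair that was looked at after its values were seen and so was not tested. The order of the 8 mice by *Tgfa* was the same as by the mean log2 CPM of the 10 markers. In WT replicates 1 to 4 the markers summed to 7673, 2883, 8967 and 5799 CPM beside 151, 74.2, 174 and 118 CPM of *Tgfa*. In KO replicates 1 to 4 they summed to 7269, 4487, 4963 and 6970 CPM beside 149, 95.5, 111 and 129 CPM of *Tgfa*. WT replicate 2 was lowest and WT replicate 3 highest in both. Among the marker lists Pearson's r with *Tgfa* was 0.988 for medium spiny neurons, and next highest for microglia (0.828) and vessels (0.674). These r were not tested, so the relation is not shown to be particular to medium spiny neurons. All 10 markers were lower in KO by log2 fold change, with 0 of them under an unadjusted p of 0.05, and the part of these neurons in the values of *Tgfa* was not tested.

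**Figure D5:**
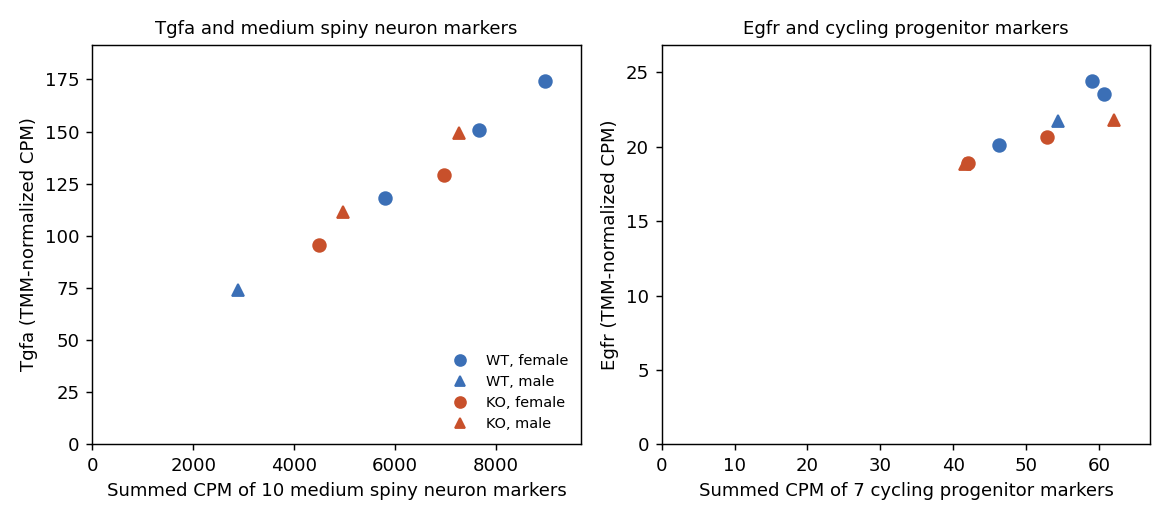
*Tgfa* CPM against the summed CPM of 10 medium spiny neuron markers (left) and *Egfr* CPM against the summed CPM of 7 cycling progenitor markers (right), with 1 point per mouse and axes from 0. *Tgfa* rises from 74.2 CPM at 2883 CPM of markers to 174 at 8967, and *Egfr* spans only 18.9 to 24.4 CPM.

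For each receptor the genes with the most similar pattern over the 8 mice were taken from 11498 or 11499 genes with a mean of at least 5 CPM, as a description, since the highest of so many values are large in 8 mice whatever the genes. They were *Palm*, *Armc5* and *Ctdsp2* for *Egfr* (Pearson's r from 0.95 to 0.97), and *Cpsf4*, *Det1* and ENSMUSG00000026276.21 for *Erbb2* (0.949 to 0.973). For *Erbb3* they were *Zfp609*, *Setd1b* and *Per1* (0.937 to 0.962), and for *Erbb4* they were Gm21926, *Fndc5* and *Zfp160* (0.971 to 0.976). No gene of the set and no marker used here was among them.

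Male and female mice were compared in a fit with genotype and sex. Of the 10 genes 0 passed the adjusted threshold, where 3.72% of all genes tested did, 0 passed in DESeq2, and 1 had an unadjusted p under 0.05 in edgeR, where 15.9% of all genes did. That gene was *Hbegf*, with 11.9, 14.5 and 13.5 CPM in the 3 males and 15.0 to 20.4 in the 5 females, so that every male was below every female. Of all genes tested 2.8% had every male below every female, and 4.7%, but 0 of these 10, had every male above every female. The log2 fold change of male minus female was -0.36 (standard error 0.13, unadjusted p = 0.0248, adjusted p = 0.233, edgeR). Without WT replicate 2, the only WT male, it was -0.24. The summed cortical markers were at 489 to 1834 CPM in the males and at 62.1 to 366 CPM in the females, also without overlap, so sex and the cortical part of the dissections cannot be told apart for *Hbegf*. Over the 8 mice Pearson's r of *Hbegf* was -0.812 with cortical, -0.926 with interneuron and 0.857 with medium spiny neuron markers. Without the 2 mice farthest from the median of each list r was -0.677, -0.766 and 0.538 in the same order. Among the other marker lists the largest r was 0.731, for microglia. These r were not tested. The other 9 genes had overlapping ranges in males and females, and with sex in the fit the KO values stayed inside the intervals given above for all 10 genes.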

How the data were processed

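PolyA libraries were made with a NEBNext Ultra II DNA kit, and per the submitters' processing notes bcl2fastq 2.20 and Salmon were used, with Gencode M29 as the transcript set. For genes the authors deposited estimated counts that are not normalized. Per transcript they deposited estimated counts and TPM in a file of each mouse. How transcripts were summed to genes is not given in the sources used here. Columns were matched to mice by name, and gene and transcript totals were equal in every mouse.

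Symbols were found for 94.8% of gene identifiers. Transcripts were assigned to genes with Gencode M21 (GRCm38), an older build than the authors', which matched 97.4% of transcripts and at least 99.2% of the reads of a mouse. Coordinates are those of M21, and the *Egfr* and *Erbb4* transcripts whose sequences are printed have the same length in both releases.

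Estimated counts were rounded and tested with edgeR 4.0.16 (R 4.3.3): TMM, filterByExpr, quasi-likelihood test without covariates, Benjamini-Hochberg adjustment over 17669 genes and the study's threshold of 0.1. The standard error is the log2 fold change over the square root of F. Log2 CPM used a prior count of 2. Marker lists were summarized by summed CPM or mean log2 CPM. Shares of transcripts, for those with a mean share of 10% to 90%, and correlations were tested by two-sided exact permutation over mice. The count test was tested on simulated data. Alternatives were DESeq2 1.42.0 with and without sex, its size factors in edgeR, no filter, a minimum of 10 counts in every mouse, sex, a replicate block, females alone, transcript sums with length offsets, a prior count of 0.5, centring within genotype, and each mouse left out in turn.

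The gene set, the lists and the tests were chosen with earlier results of these data known. Named were the 10 genes and *Lrig1*, the 3 genes most like each receptor, the gene of smallest p in each role of the pathway list, and the leading markers. The pair of *Tgfa* with medium spiny neuron markers was chosen after its values were seen. So were the pairs of *Hbegf* with cortical, interneuron and medium spiny neuron markers. Depth was between 47887437 and 74482334 counts, and the mouse was the unit in every test.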

Additional observations from a re-analysis of the deposited data

Results flagged for a closer look

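Of 62 groups of 4 mice, over the 10 genes, the 7 transcript shares and the 14 marker lists in each genotype, the gap of 1 mouse to its nearest neighbour exceeded the 95% critical value of Dixon's test in 2 of these groups (3.23%). Chance alone flags about 1 in 20 groups. Neither was a gene or transcript of the ErbB set. WT replicate 2 had 1834 CPM of cortical excitatory neuron markers, and the next WT mouse had 366. KO replicate 3 had 235 CPM of oligodendrocyte precursor markers, and the other KO mice had at least 265.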

How the results depend on the processing

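No alternative called any of the 10 genes or of the pathway genes between KO and WT, and the replicate numbers did not pair the mice (correlations of same-numbered mice 0.0774, -0.225, -0.225 and 0.267). Over 168 refits of the 10 genes, 149 kept the direction, 19 had the opposite one, and the smallest adjusted p was 0.8103. Over all genes edgeR called 1, lower in KO, and it was not *Lrig1*. DESeq2 called 12 (4 higher, 8 lower) and DESeq2 with sex 201 (79 higher, 122 lower). In edgeR 2 were called with no filter and 2 with sex, all lower, 3 in females alone, all lower, 0 with a minimum of 10 counts, 0 with the replicate block, and 0 to 3 with 1 mouse left out (0 to 2 higher, 0 to 3 lower). The causes were not tested.

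Values of opposite sign (KO minus WT, log2) were 0.014 (DESeq2 with sex) and 0.015 (edgeR with sex) for *Tgfa*, 0.025 and 0.028 for *Hbegf* in the same fits, 0.064 for *Egf* and -0.026 for *Nrg1* in females alone, and 0.0051 for *Erbb2* and -0.015 for *Nrg1* with transcript sums. In females alone the Erbb4-205 share differed by -0.106 percentage points. With 1 mouse left out the log2 fold change ranged from -0.41 to 0.14 for *Egf*, from -0.20 to 0.029 for *Erbb2*, from -0.20 to 0.063 for *Hbegf*, from -0.29 to 0.086 for *Tgfa* and from -0.053 to 0.10 for *Nrg1*. Male minus female ranged from -0.066 to 0.035 for *Egfr*, from -0.29 to 0.12 for *Erbb2*, from -0.065 to 0.11 for *Erbb4*, from -0.025 to 0.062 for *Errfi1*, from -0.12 to 0.088 for *Nrg1* and from -0.52 to 0.20 for *Tgfa*. Shares (percentage points) ranged from -0.0355 to 2.09 for Erbb4-205 and from -4.25 to 1.82 for Nrg1-201. The r of *Erbb3* with oligodendrocyte markers ranged from -0.273 to 0.495, of *Erbb4* with interneuron markers from -0.155 to 0.65, of *Errfi1* with immediate early genes from -0.026 to 0.324 and of *Nrg1* with cortical markers from -0.137 to 0.468. Between 0 and 1 of the 9 pairs passed with 1 mouse left out. *Egf* and *Btc*, with 3 to 34 counts, are limited by depth.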
